A study of Mus musculus with 12 samples.

Results

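The colon of mice lacking both L-amino acid oxidases LAO1 and IL4i1 was compared with the colon of wild type mice. The comparison used 6 of the 12 arrays of the series, 3 labelled double knockout and 3 labelled wild type, and it was described across all probes that carry a gene name. Of 22206 probes on the array, 19572 had a name, which gave 19505 genes. The series also holds 3 LAO1 knockout and 3 IL4i1 knockout arrays, used here to place single genes and to estimate the spread between arrays. All animals were healthy males of 12 to 16 weeks, and RNA came from whole colonic tissue, so muscle, nerve, connective tissue and immune cells are in every sample. Per the labels' protocols, 4 males were drawn at random for each genotype, and it is not given whether an array holds the RNA of 1 animal. The p-values therefore speak only to the spread among these arrays, part of which may be technical. The strain, the design of the alleles, whether littermates were used and the hour of collection are not given in the sources used here. The study's title names inflammatory diarrhea, amino acid metabolism and the route from IDO1 to kynurenine as its subjects.

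L-amino acid oxidases turn amino acids into keto acids and release ammonia and hydrogen peroxide. IL4i1 is made mainly by antigen-presenting cells and acts on phenylalanine and tryptophan, whereas LAO1 is known from milk and mucosal fluids, where its peroxide acts on bacteria. Interferon gamma, made by T cells and natural killer cells, switches on a set of genes in colon epithelium and in macrophages. Among these are the guanylate-binding proteins (Gbp genes) and immunity-related GTPases (Irg genes), which attack the vacuoles of intracellular microbes, and the machinery that loads peptides onto MHC molecules. The same signal induces Ido1, the enzyme that opens the kynurenine route of tryptophan breakdown.

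The genotypes rested on the labels. No probe carried the name Il4i1, so its transcript was not analysed here. For Lao1 the probe read 3.24, 3.12 and 2.64 log2 units on the wild type arrays and 3.23, 3.41 and 3.56 on the double knockout arrays. Both groups lay near the floor of the table, whose values ran from 1.72 to 19.93, and they overlapped (difference 0.40 ± 0.22 SE, adjusted p = 0.74, limma with Benjamini-Hochberg adjustment). The probe therefore checked nothing about the deletion. The tissue label was checked against intestinal genes. Cdx2, the transcription factor of intestinal epithelium, read 12.97 to 13.55 in wild type and 12.11 to 13.55 in the double knockout. Muc2, the mucin of the colonic mucus layer, stood at the highest value of the table on all 6 arrays.

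Correlations between arrays over all probes lay between 0.984 and 0.99 within wild type, between 0.972 and 0.982 within the double knockout and between 0.978 and 0.986 across the groups. Double knockout replicate 1 stood at least 1 log2 unit above all 11 other arrays in 127 named genes and below them in 29. Its genes included Reg3b, Reg3g, Lcn2, Il1b and Cxcl9, which belong to acute inflammation. Double knockout replicate 2 stood above all others in 39 genes, led by digestive enzymes of the pancreas. Wild type replicate 2 stood above in 10 genes, among them heat shock genes, and the other 3 arrays of the comparison in 0 to 3 genes. Arrays of the same group thus differed in ways that the genotype does not name, and the main results that rest on them are given with and without the array.

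Promoter sequence is shown for selected interferon-inducible genes, which stood high together in the double knockout, and for single genes described later. Windows of 120 bases upstream of the start, written 5′ to 3′ on the gene's strand, come from RefSeq on mouse build GRCm38.p6. Capitals mark the interferon-stimulated response element, searched as GAAA, any 2 bases and GAAA again, and the gamma-activated site, searched as TTCNNNGAA, on both strands.
Gbp2 (chr3:142620543-142620662, plus strand): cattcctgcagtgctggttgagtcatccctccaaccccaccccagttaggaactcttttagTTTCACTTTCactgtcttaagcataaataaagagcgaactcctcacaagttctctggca
Gbp3 (chr3:142559924-142560043, plus strand): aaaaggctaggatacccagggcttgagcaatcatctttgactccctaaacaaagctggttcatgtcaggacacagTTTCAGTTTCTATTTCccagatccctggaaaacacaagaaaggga
Gbp7 (chr3:142530216-142530335, plus strand): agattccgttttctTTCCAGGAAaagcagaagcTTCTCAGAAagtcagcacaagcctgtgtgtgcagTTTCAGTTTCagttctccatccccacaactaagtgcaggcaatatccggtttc
Igtp (chr11:58199436-58199555, plus strand): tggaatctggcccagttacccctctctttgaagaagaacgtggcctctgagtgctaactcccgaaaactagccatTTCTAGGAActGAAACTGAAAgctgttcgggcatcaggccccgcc
Irgm2 (chr11:58214857-58214976, plus strand): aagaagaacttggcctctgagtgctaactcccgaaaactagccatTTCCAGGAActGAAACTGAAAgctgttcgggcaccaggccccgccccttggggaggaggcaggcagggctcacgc
Irgm1 (chr11:48871421-48871540, minus strand): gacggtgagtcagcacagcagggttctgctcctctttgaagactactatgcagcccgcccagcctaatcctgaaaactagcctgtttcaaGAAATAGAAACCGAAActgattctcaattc
Tgtp2 (chr11:49064213-49064332, minus strand): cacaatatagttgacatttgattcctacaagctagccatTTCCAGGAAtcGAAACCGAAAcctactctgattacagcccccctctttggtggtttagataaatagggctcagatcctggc
Gm12250 (chr11:58183723-58183842, plus strand): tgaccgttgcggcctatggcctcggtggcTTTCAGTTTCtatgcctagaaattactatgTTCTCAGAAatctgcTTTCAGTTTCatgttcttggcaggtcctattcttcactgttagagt
Irf1 (chr11:53769894-53770013, plus strand): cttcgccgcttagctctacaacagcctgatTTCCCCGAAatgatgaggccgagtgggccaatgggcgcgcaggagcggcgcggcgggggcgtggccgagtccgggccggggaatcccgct
In Gbp3 and in Irgm1 2 matches of the first motif overlap and run together, and the second motif reads the same on both strands. In Igtp, Irgm2 and Tgtp2 a gamma-activated site stands just ahead of a response element. Over the RefSeq promoters, 3.44% of 32851 held the response element and 8.3% the gamma-activated site. Here and below, shares and list counts cover whole promoter entries, which are longer than the 120 bases shown. The shares count entries, whereas the list counts take a gene with a match in any of its entries. Of 14 measured Irg genes, 9 had a promoter entry, of which 6 held the response element and 4 the gamma-activated site. All 3 Gbp genes with an entry held the response element. It was held by 15 of 26 antiviral genes of type I interferon with an entry. Of MHC class I genes 5 of 17 held it, and of class II genes 1 of 9. The windows shown are a selection in which each holds a match. A match of letters is a description and not a shown binding site.

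Few genes passed the test across all probes. At an adjusted p under 0.05, 2 probes were higher in the double knockout (0.00901%) and 3 were lower (0.0135%), together 0.0225% of all probes. At an unadjusted p under 0.05 there were 1653 probes (7.44%), 807 of them higher (3.63%) and 846 lower (3.81%). The 3 double knockout arrays stood wholly above the 3 wild type arrays in 1115 named genes (5.72%) and wholly below in 1160 (5.95%), and the median difference over all named genes was 0. Counted over named genes, the calls were 0.0103% (higher) and 0.0154% (lower). At an unadjusted p under 0.05, 3.62% of named genes were higher and 3.89% lower. The member counts of every list below stand against these shares, and counts without overlap against 5.72% and 5.95%. The 5 genes that passed were Sh3d19, Sulf2, Hao2, Nupr1 and Arntl, and only these are said to have risen or fallen against wild type below. For all other genes the values describe these 6 arrays.

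**Figure D1:**
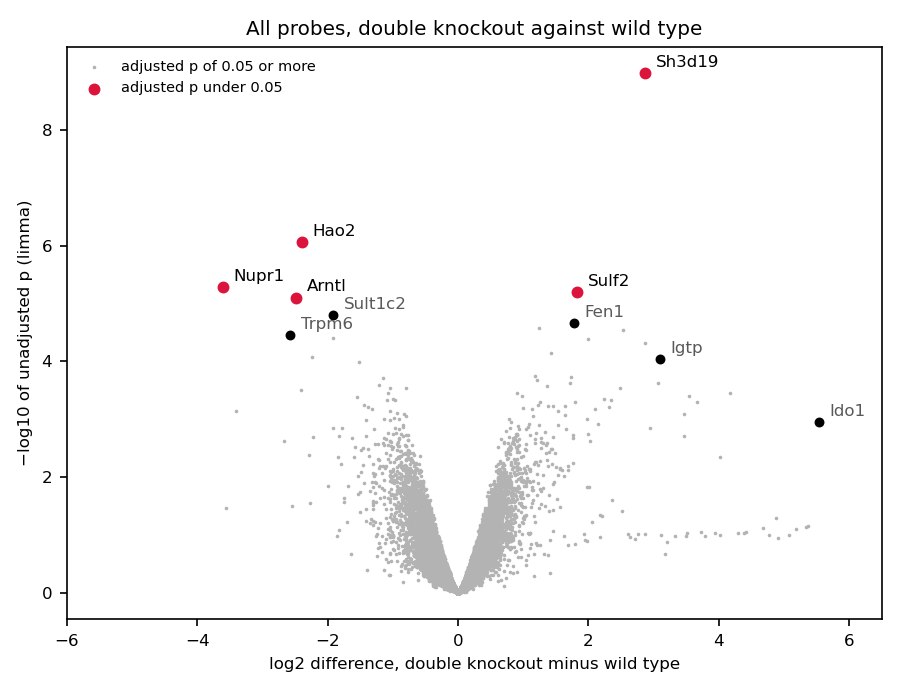
Each point is a probe, placed by the log2 difference between double knockout and wild type (horizontal) and by −log10 of limma's unadjusted p (vertical). The 5 red points passed an adjusted p of 0.05: Sh3d19 at 2.87 and Sulf2 at 1.83 on the right, Nupr1 at -3.61, Arntl at -2.48 and Hao2 at -2.39 on the left. Ido1, at 5.54, has the largest difference of the named genes, and its arrays overlap between the groups.

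Sh3d19 encodes an adaptor protein with SH3 domains that binds metalloproteases of the ADAM family. The wild type arrays read 12.03, 11.79 and 12.11 and the double knockout arrays 14.9, 14.89 and 14.75. The groups were 2.64 log2 units apart at their nearest arrays. Sh3d19 rose 7.31-fold (log2 difference 2.87 ± 0.19 SE, adjusted p = 2.31e-05, limma), and it passed under all 14 alternative settings, with adjusted p between 9.79e-06 and 0.00334. The single knockouts read 14.67 to 15.08 without LAO1 and 15.21 to 15.55 without IL4i1. Every knockout array of the series therefore lay above every wild type array, and the double knockout differed from the LAO1 knockout by -0.06 and from the IL4i1 knockout by -0.50 (adjusted p = 0.974 and 0.399, limma).

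Sulf2 encodes an extracellular sulfatase that removes 6-O-sulfate from heparan sulfate chains and so changes which growth factors they hold. It read 7.91, 8.04 and 7.84 in wild type and 10.29, 9.57 and 9.43 in the double knockout. The groups did not overlap, and the rise was 3.56-fold (log2 1.83 ± 0.25 SE, adjusted p = 0.0352, limma). Against the single knockouts the differences were 1.43 (LAO1, adjusted p = 0.0528) and 1.69 (IL4i1, adjusted p = 0.00928, limma). Sulf2 passed under 7 of the 14 alternatives. It missed the threshold with only the 6 compared arrays (adjusted p = 0.14), with the replicate number as a block (0.0649), without wild type replicate 1, 2 or 3 (adjusted p = 0.149, 0.137 and 0.0713) and without double knockout replicate 1 or 3 (0.153 and 0.0526). Sulf1, its sister enzyme, read 8.58, 8.08 and 7.6 in wild type against 8.99, 8.8 and 8.01, and these values overlapped.

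Nupr1 encodes a small chromatin-associated protein of the stress response that is induced through ATF4. The wild type arrays read 12.72, 14.1 and 13.45, whereas the double knockout arrays read 9.67, 9.91 and 9.87 with an SD of 0.13. Nupr1 fell 12.2-fold (log2 -3.61 ± 0.49 SE, adjusted p = 0.0352, limma), the largest fall of any named gene. It was also lower than in the LAO1 knockout by -3.56 (adjusted p = 0.00867) and than in the IL4i1 knockout by -2.64 (adjusted p = 0.0348, limma). These contrasts share the double knockout arrays. Nupr1 passed under 10 of the 14 alternatives and missed the threshold without wild type replicate 2 or 3 (adjusted p = 0.137 and 0.0661) and without double knockout replicate 1 or 3 (0.155 and 0.107). Its promoter window holds the ATF4-type motif TGATGCAA, given here in capitals as it reads from the other strand. Of all RefSeq promoters, 0.895% held these letters on either strand.
Nupr1 (chr7:126625471-126625590, minus strand): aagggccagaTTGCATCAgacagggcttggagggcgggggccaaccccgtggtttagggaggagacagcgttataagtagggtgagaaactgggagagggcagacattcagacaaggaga
The list of ATF4 targets, to which Nupr1 belongs, was mixed. Of 27 measured genes of amino acid stress, serine synthesis and one-carbon metabolism, 9 were higher and 2, Nupr1 among them, lower at an unadjusted p under 0.05 (3.62% and 3.89% of named genes), but the groups overlapped in 24. The list's median difference was 0.60, and it was 0.39 without double knockout replicate 1 or without replicate 2. Mthfd1l, the mitochondrial formate synthase, read 8.15, 7.63 and 7.25 in wild type and 8.99, 8.73 and 8.93 in the double knockout, without overlap (log2 1.21 ± 0.24 SE, adjusted p = 0.217, limma). Phgdh, which opens serine synthesis, read 5.68, 5.42 and 5.14 against 7.4, 6.64 and 5.46. Psat1, the next enzyme, read 7.81, 8.01 and 7.71 against 10.33, 8.99 and 7.15. For both the double knockout arrays were spread widely and replicate 3 lay within or below wild type. Slc7a5, a large neutral amino acid transporter, was named after its value was seen, with a difference of 1.98, the highest of the list. Atf4 itself overlapped, at 12.91, 13.41 and 12.31 against 13.07, 12.93 and 12.8.

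Hao2 encodes a peroxisomal 2-hydroxyacid oxidase, which like the deleted enzymes is a flavoprotein and releases hydrogen peroxide. The wild type arrays read 11.67, 11.87 and 12.54 and the double knockout arrays 9.01, 9.97 and 9.94. Hao2 fell 5.23-fold (log2 -2.39 ± 0.28 SE, adjusted p = 0.00974, limma) and the groups did not overlap. Hao2 passed under 12 of the 14 alternatives, missing the threshold with only the 6 compared arrays (adjusted p = 0.14) and without wild type replicate 2 (0.061). Single knockout arrays stayed between 11.9 and 12.22, and the double knockout was lower than the LAO1 knockout by -2.31 (adjusted p = 0.0041) and than the IL4i1 knockout by -2.51 (adjusted p = 0.000898, limma). Of 20 measured peroxide-releasing oxidases, Hao2 alone passed the adjusted threshold, and 1 was higher and 1 lower at an unadjusted p under 0.05, with a list median of -0.09. The higher one was Xdh, xanthine oxidoreductase of purine breakdown, which read 10.19, 10.78 and 10.92 in wild type and 11.85, 11.28 and 12.57 in the double knockout (log2 1.27 ± 0.33 SE, adjusted p = 0.387, limma). Dao, the D-amino acid oxidase, overlapped at 4.35, 4.23 and 5.2 against 4.74, 4.37 and 4.78. Of 20 genes of peroxide defence, 2 were higher at an unadjusted p under 0.05, the peroxiredoxins Prdx2 and Prdx4, and catalase overlapped.

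Arntl encodes BMAL1, the transcription factor that with CLOCK or NPAS2 drives the circadian clock. It read 9.23, 8.59 and 7.73 in wild type and 6.08, 5.67 and 6.36 in the double knockout. The fall was 5.58-fold (log2 -2.48 ± 0.35 SE, adjusted p = 0.0352, limma), with no overlap between the groups. Arntl passed under 9 of the 14 alternatives and missed the threshold with only the 6 compared arrays (adjusted p = 0.164), without wild type replicate 1 or 2 (0.149 and 0.165) and without double knockout replicate 1 or 3 (0.155 and 0.0783). Single knockout arrays lay in between, from 6.8 to 7.51 without LAO1 and from 6.59 to 7.36 without IL4i1. The double knockout was not called against either (differences -1.07 and -1, adjusted p = 0.518 and 0.332, limma).

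**Figure D2:**
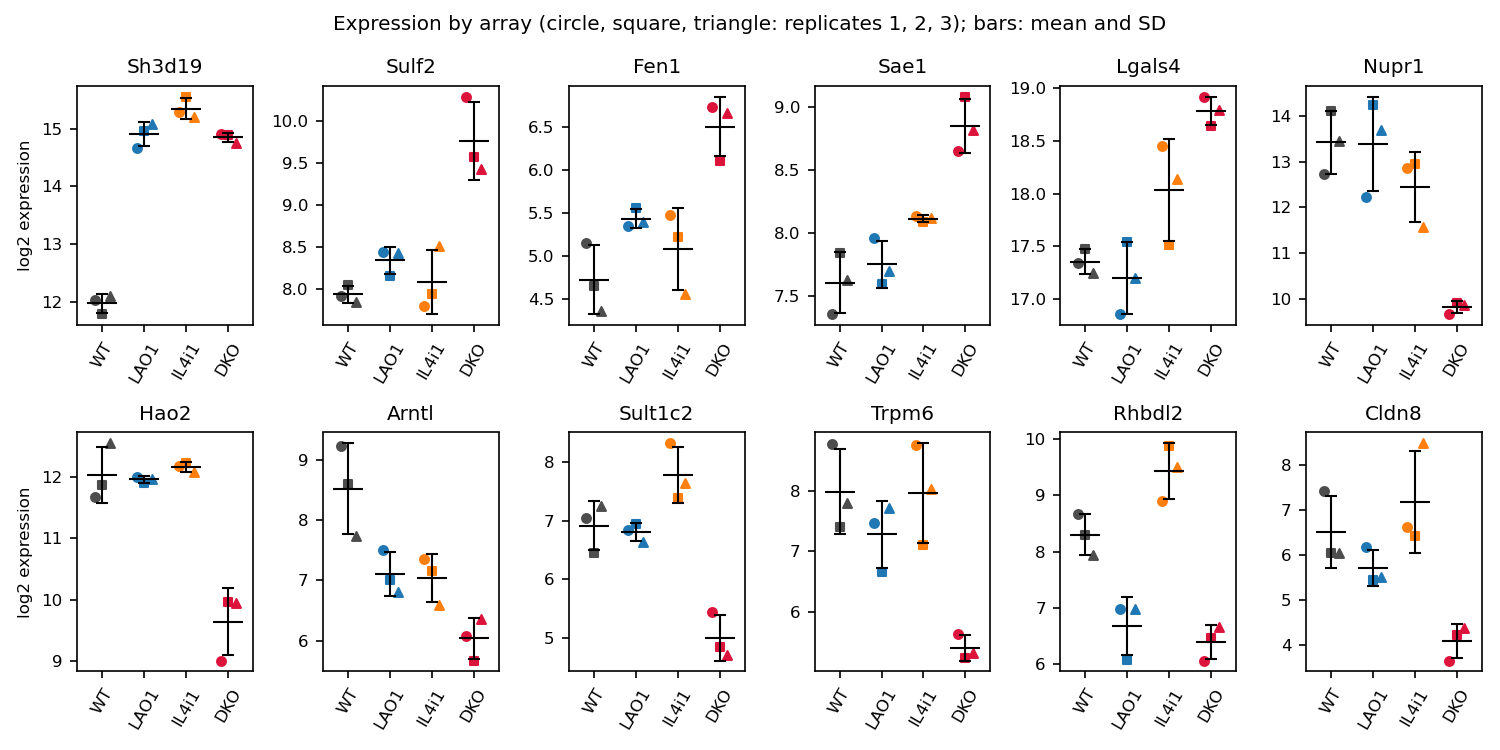
Log2 expression of 12 genes on every array of the series, by genotype (WT, LAO1 knockout, IL4i1 knockout, DKO), with symbols for replicates and bars for the mean and SD of 3 arrays. Vertical axes differ between panels and do not start at 0. Sh3d19 is high in every knockout genotype. In Nupr1, Hao2, Sult1c2, Trpm6, Cldn8 and Arntl all 3 double knockout arrays lie below the other 9.

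Other clock genes stood apart in both directions. Npas2, its partner, read 10.01, 9.4 and 7.91 in wild type and 6.87, 6.47 and 7.25 in the double knockout (log2 -2.24 ± 0.40 SE, adjusted p = 0.124, limma). Per2, a repressor of the loop, read 6.12, 7.5 and 7.17 against 7.96, 8.47 and 8.98 (log2 1.54, adjusted p = 0.283). Ciart, another repressor, read 5.14, 5.41 and 5.36 against 6.66, 7.88 and 6.29 (log2 1.64, adjusted p = 0.271). In these 3 genes the groups did not overlap, and wild type replicate 3 lay nearest to the double knockout for both Arntl and Npas2. Of 20 measured clock genes, 6 were higher and 4 lower at an unadjusted p under 0.05 (3.62% and 3.89% of named genes). These 10 were also the genes whose groups did not overlap. Per1, Per3 and the output factor Dbp were among the higher, and Clock and the receptor Nr1d1 among the lower. Nr1d1 read 10.14, 10.31 and 9.99 in wild type and 8.47, 9.61 and 9.11 in the double knockout, and was lower there than in both single knockouts (-1.89, adjusted p = 0.0114, and -1.80, adjusted p = 0.0103, limma). The hour of dissection is not given, so time of day and genotype cannot be told apart for genes that cycle daily. The Ciart window carries the E-box CACGTG, the motif bound by BMAL1 pairs, at 3 places in capitals. That motif was in 7.15% of all promoters and in 5 of the 17 clock genes with an entry.
Ciart (chr3:95882229-95882348, minus strand): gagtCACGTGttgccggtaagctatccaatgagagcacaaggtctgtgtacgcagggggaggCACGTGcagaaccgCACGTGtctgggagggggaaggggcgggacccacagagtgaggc

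Genes of the interferon response made up much of what stood just outside the threshold. Of 14 measured Irg genes, 9 were higher and 0 lower at an unadjusted p under 0.05 (3.62% and 3.89% of named genes). Their median difference was 2.31 log2 units, and in 7 of them the groups overlapped. Of 6 measured Gbp genes, 5 were higher and 0 lower, the median was 1.86, and in all 6 the groups did not overlap. None of the 20 passed the adjusted threshold of limma. Igtp (Irgm3) read 5.06, 6.51 and 7.18 in wild type and 10.1, 8.22 and 9.73 in the double knockout (log2 3.10 ± 0.56 SE, adjusted p = 0.128, limma). Gm12250 (Irgb10), which breaks open bacteria, read 4.77, 6.18 and 6.73 against 9.39, 7.89 and 8.97 (log2 2.86 ± 0.48 SE, adjusted p = 0.0812). Tgtp2, which permeabilises parasite vacuoles, read 6.68, 7.83 and 10.05 against 12.42, 10.45 and 12.66 (log2 3.66 ± 0.80 SE, adjusted p = 0.259). In each of these the double knockout arrays lay above all wild type arrays, but wild type itself ranged over more than 1 log2 unit.

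Gbp3 came nearest among the Gbp genes. It read 6.49, 7.26 and 7.08 in wild type and 9.44, 8.14 and 9.23 in the double knockout (log2 1.99 ± 0.33 SE, adjusted p = 0.0744, limma). Gbp2, a GTPase that coats vacuoles and bacteria, read 6.79, 8.07 and 8.94 against 11.84, 9.6 and 11.55 (log2 3.06 ± 0.61 SE, adjusted p = 0.229). Gbp7 read 9.19, 9.78 and 10.17 against 11.88, 11 and 11.43 (log2 1.72, adjusted p = 0.229). The order of the arrays recurred over the lists. Wild type replicate 3 was the highest wild type array in 12 of the 14 Irg genes and replicate 1 the lowest in 10, and double knockout replicate 2 was the lowest of its group in 9 Irg and all 6 Gbp genes.

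**Figure D3:**
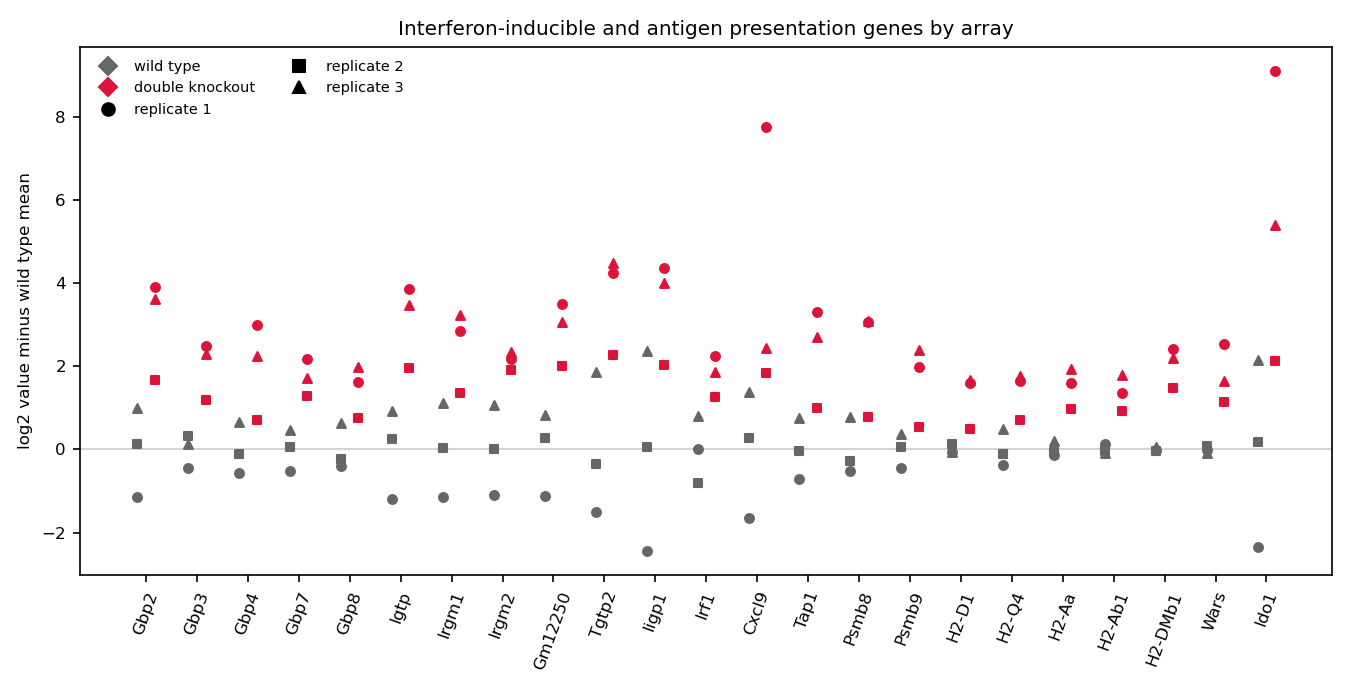
Log2 value minus the wild type mean (vertical) for 23 interferon-inducible and antigen presentation genes, with wild type arrays in grey, double knockout arrays in red and symbols for replicates. In 21 of the 23 genes all red points lie above all grey points, the exceptions being Iigp1 and Ido1. The 23 genes were selected from the named genes, so this count reflects that selection. Over the full lists the double knockout lay wholly above wild type in 7 of 14 Irg and 6 of 6 Gbp genes. For MHC class I it did so in 8 of 19 and for class II in 6 of 11, against 5.72% of named genes. Double knockout replicate 2 (red square) is the lowest red point in all 23, and Ido1, Iigp1 and Tgtp2 spread most in wild type.

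The weight of single arrays showed when each was left out. Without double knockout replicate 2 the number of calls over all probes went from 5 to 38, and it then included 4 Irg genes, 4 Gbp genes and 5 genes of MHC class I processing. Without double knockout replicate 1, the array high in acute inflammation genes, it went to 2 (Sh3d19 and Hao2), with none from these lists. The median of the Irg list was 2.13 without replicate 1 and 2.55 without replicate 2, and that of the Gbp list 1.49 and 2.17.

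Against the single knockouts some of these genes passed. The double knockout exceeded the LAO1 knockout in 8 of 14 Irg and 3 of 6 Gbp genes and the IL4i1 knockout in 9 and 6 at an adjusted p under 0.05, where 0.14% and 0.477% of all probes were called. Igtp was higher by 4.64 against the LAO1 knockout (adjusted p = 0.0041) and by 4.70 against the IL4i1 knockout (adjusted p = 0.0014, limma). The single knockout arrays of Igtp read 4.13 to 5.52, against 5.06 to 7.18 in wild type. The 3 comparisons share the double knockout arrays and are not independent of each other.

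Ifng, the cytokine gene itself, was dim. It read 4.13, 3.69 and 4.07 in wild type and 5.51, 4.34 and 4.77 in the double knockout (log2 0.91 ± 0.29 SE, adjusted p = 0.504, limma). Irf1, the first transcription factor induced by the cytokine, read 11.59, 10.78 and 12.39 against 13.84, 12.84 and 13.46 (log2 1.79 ± 0.39 SE, adjusted p = 0.259). Both were apart between the groups without passing. The receptor gene Ifngr1 overlapped, at 12.6, 12.74 and 12.12 against 12.61, 12.7 and 12.24. Cxcl9, a ligand of the lymphocyte receptor CXCR3, read 3.97, 5.88 and 6.99 against 13.36, 7.46 and 8.06, so its difference of 4.01 (adjusted p = 0.444) leans on replicate 1 and was 2.15 without that array. Of 20 measured genes of the interferon gamma axis, 8 were higher and 1 lower at an unadjusted p under 0.05, with a median of 0.22. The lower one, named after its value was seen, was Il18, at a difference of -1.74.

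Antiviral genes of type I interferon leaned the same way. Of 36 measured members, 13 were higher and 0 lower at an unadjusted p under 0.05 (3.62% and 3.89% of named genes). In 15, all of them higher, the groups did not overlap (5.72% of named genes), and the median was 0.41. Oasl2, an antiviral synthetase relative, read 8.96, 9.44 and 9.98 in wild type and 10.61, 10.73 and 11.14 in the double knockout (log2 1.37 ± 0.28 SE, adjusted p = 0.229, limma). Ifitm3, which blocks virus entry, read 9.08, 9.54 and 9.35 against 12.28, 10.01 and 10.66. Isg15, a classic marker of type I interferon, overlapped at 4.26, 4.54 and 4.41 against 4.31, 4.25 and 4.52. Oas2 and Irf7 overlapped as well.

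Antigen presentation genes stood high in both classes. All 19 measured genes of MHC class I and its peptide supply had a positive difference. Of these, 13 were higher at an unadjusted p under 0.05 (3.62% of named genes). The groups overlapped in 11, and the median was 1.05. Tap1, a chain of the peptide pump, read 8.44, 9.12 and 9.91 in wild type and 12.47, 10.16 and 11.86 in the double knockout (log2 2.34 ± 0.51 SE, adjusted p = 0.259, limma). Psmb8, a catalytic subunit of the immunoproteasome, read 7.21, 7.45 and 8.49 against 10.79, 8.5 and 10.81, with replicate 2 only just above wild type. H2-D1, a classical class I heavy chain, read 10.78, 10.97 and 10.78 against 12.44, 11.34 and 12.51 (log2 1.25 ± 0.27 SE, adjusted p = 0.259). Class I heavy chains are close in sequence, so signal may be shared among their probes. B2m, the light chain, overlapped and neared the ceiling of the table, at 18.08, 18.28 and 19.25 against 19.64, 19.2 and 19.8.

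Of 11 measured class II genes, 6 were higher and 0 lower at an unadjusted p under 0.05 (3.62% and 3.89% of named genes). Their median was 1.11, and the groups overlapped in 4. H2-DMb1, a chain of the editor that fits peptides into class II molecules, had one of the cleanest separations of the comparison. It read 8.49, 8.47 and 8.57 in wild type and 10.93, 10 and 10.7 in the double knockout, a gap of 1.43 between the nearest arrays (log2 2.03 ± 0.54 SE, adjusted p = 0.393, limma). Its single knockout arrays ran from 6.62 to 9.14, and this spread enters the standard error. H2-Aa read 11.65, 11.73 and 11.98 against 13.39, 12.76 and 13.73, and H2-Ab1 read 10.99, 10.83 and 10.77 against 12.22, 11.78 and 12.65. For both, wild type was tight and the groups did not overlap. Ciita, the master activator of the class, overlapped at 6.32, 6.02 and 6.92 against 8.2, 6.88 and 8.12.

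Ido1 had the largest difference of all named genes, with an SD of 2.26 in wild type and 3.49 in the double knockout. The wild type arrays read 3.4, 5.93 and 7.91 and the double knockout arrays 14.85, 7.88 and 11.14. Replicate 2 of the double knockout lay below wild type replicate 3, so the groups overlapped, and the difference of 5.54 ± 1.34 SE had an adjusted p of 0.345 (limma). Ido1 passed under 1 of the 14 alternatives, without double knockout replicate 2, at a difference of 7.25 (adjusted p = 0.0246, limma). Without double knockout replicate 1 the difference was 3.76 (adjusted p = 0.77, limma). The single knockouts read 3.85 to 5.01. Wars, the tryptophan tRNA synthetase, which is also induced by interferon gamma, read 13.15, 13.25 and 13.08 against 15.7, 14.3 and 14.8 and did not overlap (log2 1.77 ± 0.46 SE, adjusted p = 0.387). Kynu and Kmo, downstream in the route, were dim on all 6 arrays, and their groups overlapped. Kynu read 3.73, 4.04 and 3.57 against 3.48, 3.92 and 3.95, and Kmo 4.16, 3.62 and 3.61 against 3.9, 4.57 and 3.81. The kynurenine list of 14 measured genes includes Wars, although Wars is not an enzyme of the route. In that list 2 were higher at an unadjusted p under 0.05 (3.62% of named genes), Ido1 and Wars. Its median was 0.14.

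Immune cell marker lists had medians near 0. In a whole tissue, fewer cells of a type and less RNA per cell cannot be told apart. Of 22 markers of T cells and cytotoxic lymphocytes, 3 were higher and 0 lower at an unadjusted p under 0.05 (3.62% and 3.89% of named genes). Their median was 0.13, and it ran from 0.04 to 0.24 when an array was left out. Gzma, a granule protease, read 4.98, 4.52 and 4.74 in wild type and 6.39, 5.27 and 7.19 in the double knockout (log2 1.54 ± 0.38 SE, adjusted p = 0.363, limma). Nkg7, another granule protein, read 3.43, 3.74 and 3.74 against 4.38, 4.87 and 4.24, and Cd3e of the T cell receptor 4.9, 4.79 and 4.61 against 5.15, 5.36 and 5.7. These 3 did not overlap, while Cd4 and Cd8a did. Of 22 macrophage, monocyte and dendritic cell markers only Cd14 was higher at that level, and Csf1r and Adgre1 overlapped. B cell and plasma cell markers had a median of 0.06. The mean log2 level over the T cell list read 4.47, 4.3 and 4.42 on the wild type arrays and 4.52, 4.65 and 4.85 on the double knockout arrays. Over the macrophage list it read 7.09, 6.67 and 6.37 against 6.76, 7.06 and 6.77. The first lay slightly higher in the double knockout and the second overlapped, and the part of either in the interferon-inducible genes was not tested.

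Several genes of acute inflammation were high on 1 array. Reg3b, an antibacterial lectin, read 3.7, 6.74 and 4.72 in wild type and 18.59, 6.52 and 4.75 in the double knockout. Lcn2, which binds bacterial siderophores, read 3.74, 3.35 and 3.79 against 9.81, 3.33 and 3.6. Il1b read 5.49, 4.5 and 5.66 against 10.79, 5.71 and 6.24. Double knockout replicates 2 and 3 thus lay within or near the wild type range. Tnf, Cxcl5 and S100a8, genes of neutrophilic inflammation, were likewise high on replicate 1 alone among the 6 arrays, at 6.84, 6.02 and 5.88. Of 13 measured neutrophil genes, 3 were higher and 0 lower at an unadjusted p under 0.05 (3.62% and 3.89% of named genes). Their median was 0.16, and -0.12 without replicate 1, and 3 had a negative difference. Mmp8 and Clec4d had differences of 0.7 and 0.91, and 0.7 and 0.69 without replicate 1. Other members of the antimicrobial and acute phase list were mixed. Saa1 had a difference of -0.29, and 0.52 without replicate 1, and Pigr one of -0.04. Duoxa2 had one of 0.85, and -0.1 without replicate 1. Nos2 and Saa3 had 2.51 and 0.81, and 0.99 and 0.45 without it, whereas Ccl28 had -0.74 and -0.78. This list of 26 genes had a median of 0.28, and 0.07 without replicate 1. At an unadjusted p under 0.05, 2 of the 26 were higher and 0 lower (3.62% and 3.89% of named genes). The list of 37 cytokines and chemokines had a median of 0.29, and 0.07 without it. The labels call these animals healthy and do not mark replicate 1 in any way.

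Pancreatic enzymes were high on replicate 2 of the double knockout. Ctrb1, chymotrypsinogen, read 2.5, 2.55 and 3.37 in wild type and 2.68, 18.25 and 2.71 in the double knockout, and Cpa1, carboxypeptidase A1, read 4.21, 4.5 and 5.48 against 4.88, 18.12 and 5.22. Such enzymes are made by pancreatic acinar cells and not by colon. Over the 24 measured acinar genes the median difference was 2.81, and -0.09 without replicate 2, and none passed at even an unadjusted p under 0.05. The same array was the lowest of its group in 16 of 19 class I genes besides the Irg and Gbp genes above, and the part of the pancreatic signal in that was not tested.

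**Figure D4:**
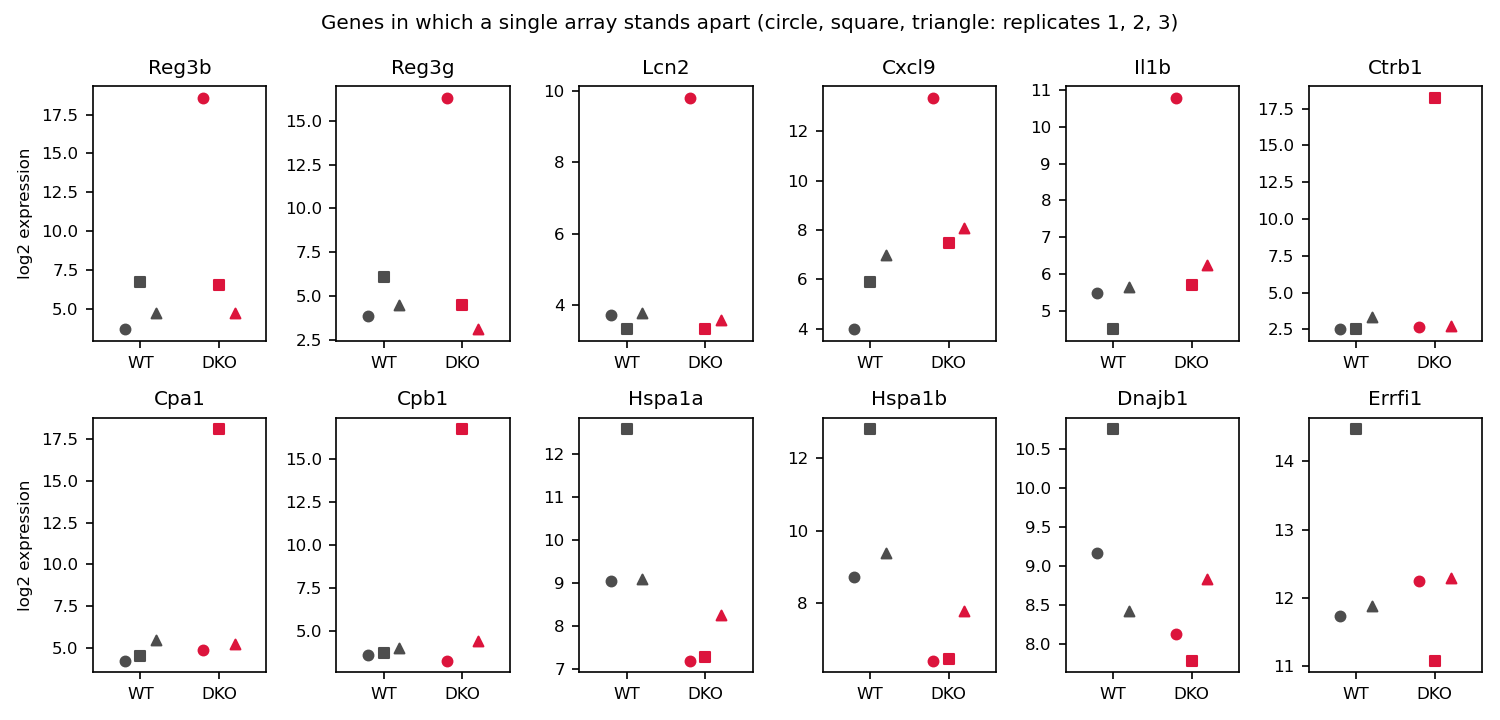
Log2 expression of 12 genes in which a single array stands apart, with wild type in grey, double knockout in red and symbols for replicates. Vertical axes differ between panels and do not start at 0. Reg3b, Reg3g, Lcn2, Cxcl9 and Il1b are high on double knockout replicate 1, pancreatic Ctrb1, Cpa1 and Cpb1 on double knockout replicate 2, and Hspa1a, Hspa1b, Dnajb1 and Errfi1 on wild type replicate 2.

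Genes of DNA replication stood higher as a list. Of 43 measured, 42 had a positive difference, and the median was 0.50. At an unadjusted p under 0.05, 19 were higher and 0 lower (3.62% and 3.89% of named genes). Fen1, the flap endonuclease that trims Okazaki fragments, read 5.16, 4.66 and 4.37 in wild type and 6.74, 6.11 and 6.67 in the double knockout (log2 1.78 ± 0.28 SE, adjusted p = 0.0692, limma). Mcm6, part of the replicative helicase, read 8.69, 7.9 and 7.88 against 10.67, 9.04 and 9.98 (log2 1.74 ± 0.34 SE, adjusted p = 0.21). Rpa1, which coats single-stranded DNA, read 9.47, 9.31 and 9.93 against 11.11, 10.46 and 10.69 (log2 1.18, adjusted p = 0.21). These 3 did not overlap, and replicate 1 was the highest double knockout array in each. The list's median was 0.30 without that array and 0.74 without replicate 2.

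Of 24 mitosis genes, 1 was higher at an unadjusted p under 0.05, and the median of 0.35 was -0.20 without double knockout replicate 1. Mki67, the proliferation antigen, overlapped at 15.36, 14.77 and 14.2 against 15.96, 14.03 and 14.28. Stem cell and Wnt target genes were level, with 0 of 13 at an unadjusted p under 0.05 and Lgr5 at 5.97, 6.15 and 6.3 against 6.66, 5.93 and 5.89. Among 24 genes of ribosome biogenesis 6 were higher and 0 lower, with a median of 0.41, and 0.15 without replicate 1. Fbl, the methyltransferase of ribosomal RNA, read 12.03, 12.17 and 12.28 against 13.34, 12.83 and 12.8. Sae1, the SUMO-activating enzyme subunit, stood near the threshold at 7.36, 7.84 and 7.63 against 8.65, 9.08 and 8.82 (log2 1.24 ± 0.20 SE, adjusted p = 0.0716, limma).

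A few transport genes of the surface epithelium stood lower, while their list as a whole did not. Of 33 genes of ion, magnesium and water transport, 1 was higher and 3 lower at an unadjusted p under 0.05, against 3.62% and 3.89% of all named genes, with a median of -0.02. Trpm6, the magnesium channel of colon and kidney, read 8.76, 7.4 and 7.79 in wild type and 5.65, 5.26 and 5.34 in the double knockout (log2 -2.57 ± 0.42 SE, adjusted p = 0.0744, limma). The groups were 1.75 apart, the widest lower gap after Nupr1. Cnnm4, the magnesium exporter on the opposite membrane, overlapped. Cldn8, a sealing claudin of distal colon, read 7.42, 6.04 and 6.03 against 3.65, 4.22 and 4.38 (log2 -2.41 ± 0.50 SE, adjusted p = 0.242). Aqp7, an aquaglyceroporin, read 5.35, 5.21 and 5.45 against 4.73, 4.17 and 4.22, without overlap.

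Sult1c2, a cytosolic sulfotransferase, was the nearest gene outside the threshold. It read 7.04, 6.44 and 7.25 in wild type and 5.44, 4.84 and 4.71 in the double knockout (log2 -1.91 ± 0.29 SE, adjusted p = 0.0582, limma). It was lower than in the LAO1 knockout by -1.81 (adjusted p = 0.0218) and than in the IL4i1 knockout by -2.79 (adjusted p = 0.000701, limma). Slc26a2, which brings sulfate into cells for this chemistry, read 14.98, 15.15 and 15.06 against 13.88, 14.16 and 13.99. These groups were tight and apart (log2 -1.05 ± 0.25 SE, adjusted p = 0.328). Sult1d1 read 10.59, 11.17 and 11.28 against 9.73, 9.98 and 9.41. Of 32 measured genes of sulfate uptake, sulfation and desulfation, 2 were higher and 6 lower at an unadjusted p under 0.05 (3.62% and 3.89% of named genes). Their median was -0.18.

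Absorptive colonocyte genes had a median of -0.49 over 28 members. At an unadjusted p under 0.05, 1 was higher and 7 lower (3.62% and 3.89% of named genes). Mep1a, a brush border metalloprotease, read 12.86, 13.22 and 12.62 in wild type and 10.8, 11.4 and 9.63 in the double knockout (log2 -2.29 ± 0.66 SE, adjusted p = 0.435, limma). Ceacam20, a microvillus adhesion protein, read 11.98, 12.37 and 11.76 against 9.84, 9.55 and 10.99. Slc16a1, a butyrate carrier, read 13.1, 12.92 and 12.59 against 12.33, 12.46 and 11.66. All 3 were apart between the groups, whereas the chloride exchanger Slc26a3 and the keratin Krt20 overlapped. Cyp2c55, a colonic cytochrome, read 15.72, 16.82 and 16.19 against 14.73, 13.11 and 10.24. Guca2b, uroguanylin, stood the other way at 6.1, 6.15 and 6.66 against 7.83, 7.19 and 8.03. The list's median was -0.20 without double knockout replicate 1.

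Markers of position along the colon varied within both groups. Hoxb13, a gene of the most distal colon, read 6.2, 2.71 and 3.82 in wild type and 4.09, 4.28 and 7.06 in the double knockout. Atp12a, the proton pump of distal colon, read 8.5, 4.48 and 4.81 against 4.76, 5.46 and 11.04. Car1, a carbonic anhydrase abundant in proximal colon, read 17.6, 19.27 and 18.9 against 19.87, 17.79 and 14.92. Double knockout replicate 3 and wild type replicate 1 were thus high in the distal genes and low in Car1, and replicate 3 was also the lowest array in Cyp2c55 and Mep1a. The part of the sampled segment in these values was not tested, and the groups overlapped in all 3 markers.

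Other epithelial lists showed few separations. Of 20 goblet cell and mucus genes, 0 were higher and 1 lower at an unadjusted p under 0.05, the secretory cell regulator Spdef, at 10.18, 10.79 and 10.8 against 9.29, 9.12 and 10.04. Of 23 enteroendocrine genes 4 were lower and 0 higher, with a median of -0.32. Chgb, a granin of hormone granules, read 9.33, 8.26 and 7.6 against 7.28, 7.16 and 6.85, and Pyy and Gcg overlapped. Tuft cell genes had a median of -0.24, with 1 of 19 lower at that level. Lgals4, a galectin of the apical membrane of enterocytes, stood higher at 17.34, 17.48 and 17.25 against 18.91, 18.64 and 18.79, with 1.16 between the nearest arrays (log2 1.42 ± 0.25 SE, adjusted p = 0.114, limma). Rhbdl2, a rhomboid protease of epithelium, read 8.67, 8.29 and 7.94 against 6.06, 6.47 and 6.65. The LAO1 knockout lay beside the double knockout in Rhbdl2, at 6.07 to 6.98, and the IL4i1 knockout far above it, at 8.9 to 9.88.

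**Figure D5:**
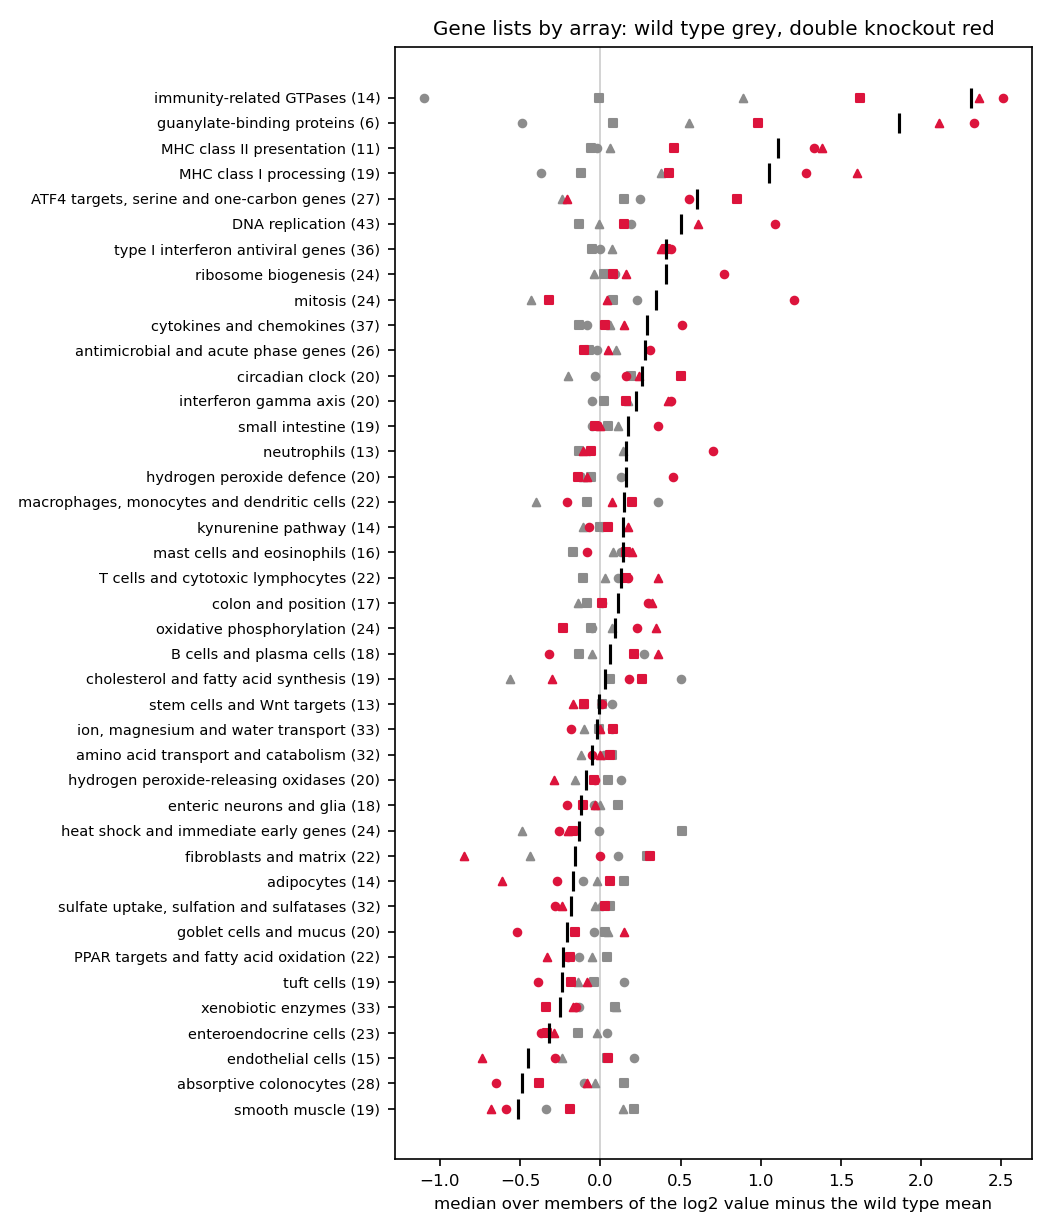
For each gene list (number of measured members in brackets), symbols give the median over its members of the log2 value minus the wild type mean, on each wild type array in grey and each double knockout array in red. Black ticks give the list's median difference, from 2.31 for the Irg list to -0.51 for smooth muscle. The pancreatic list is left out for scale. In 6 of the 41 lists (Irg, Gbp, type I interferon, both MHC lists and T cells) all 3 double knockout arrays lie above the 3 wild type arrays. In 3 (enteroendocrine, PPAR and xenobiotic) they lie below, and in 32 the arrays overlap.

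Smooth muscle and endothelial lists had medians below 0, and in both the arrays of the groups overlapped. Of 19 smooth muscle genes, 4 were lower and 0 higher at an unadjusted p under 0.05 (3.89% and 3.62% of named genes). The median was -0.51. Mylk, the myosin kinase, read 13.44, 13.95 and 13.36 in wild type and 12.13, 13.22 and 12.07 in the double knockout, while Actg2 overlapped. Endothelial markers had a median of -0.45 with 2 of 15 lower, and adipocyte markers -0.17 with 3 of 14 lower, among them Adipoq at 4.76, 5.58 and 5.87 against 4.12, 4.1 and 3.11. The adipocyte median was -0.03 without double knockout replicate 3 and -0.31 without wild type replicate 1. Neuron and glia markers had a median of -0.12. Fibroblast markers had one of -0.16, which was -0.53 without double knockout replicate 2 and 0.15 without replicate 3. How much of each layer an array sampled was not tested.

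Some heat shock and immediate early genes stood lower in the double knockout, in part through 1 wild type array. In 18 of the 24 measured genes the groups overlapped, and the list's median was -0.13. Fos, an immediate early gene, had a difference of 0.22. Hspa1b, an inducible chaperone, read 8.73, 12.79 and 9.38 in wild type and 6.42, 6.46 and 7.78 in the double knockout (log2 -3.41 ± 0.78 SE, adjusted p = 0.283, limma). Hspa1a read 9.04, 12.59 and 9.08 against 7.18, 7.28 and 8.25. Both groups of values were apart also with replicate 2 set aside. Of 24 such genes 7 were lower and 0 higher at an unadjusted p under 0.05, and the single knockout arrays of Hspa1b read 7.22 to 8.32, within or near the double knockout. Dnajb9, a chaperone of the endoplasmic reticulum, read 11.99, 12.19 and 11.69 against 9.56, 10.67 and 10.99.

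The PPAR and xenobiotic lists had medians slightly below 0, while the cholesterol and oxidative phosphorylation lists did not. Of 22 PPAR targets and fatty acid oxidation genes, 5 were lower and 0 higher at an unadjusted p under 0.05, with a median of -0.23. Slc25a20, the carnitine carrier of mitochondria, read 9.55, 10.52 and 9.78 in wild type and 8.4, 8.75 and 9.01 in the double knockout (log2 -1.23 ± 0.33 SE, adjusted p = 0.393, limma). Of 33 xenobiotic enzymes, 3 were lower and 0 higher at that level (3.89% and 3.62% of named genes), with a median of -0.25. Cyp1a1, the marker of aryl hydrocarbon receptor activity, lay near the floor of the table on all 6 arrays, at 2.28 to 2.99. Cholesterol synthesis and oxidative phosphorylation lists had 0 members at an unadjusted p under 0.05 and medians of 0.03 and 0.09.

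Amino acid transport and breakdown, the substrate side of the deleted enzymes, had a median of -0.05 over 32 genes. Of these, 1 was higher and 3 lower at an unadjusted p under 0.05 (3.62% and 3.89% of named genes). The transporter Slc7a5 was counted in the ATF4 list and not here. Its difference was 1.98, and it was called only without double knockout replicate 3. Slc6a14, a carrier of neutral and basic amino acids, read 13.54, 14.02 and 13.89 in wild type and 12.61, 12.81 and 12.9 in the double knockout (log2 -1.04 ± 0.32 SE, adjusted p = 0.485, limma). Slc1a5, the glutamine carrier, read 11.59, 11.12 and 11.33 against 10.88, 10.4 and 10.81. Arg2, mitochondrial arginase, read 2.46, 3.25 and 3.07 against 4.24, 3.49 and 3.48. These 3 did not overlap. Tat, tyrosine aminotransferase, and the phenylalanine and tryptophan carrier Slc16a10 did overlap, at 7.29, 8.5 and 7.13 against 9.63, 8.74 and 6.44 and at 4.79, 4.3 and 4.0 against 4.41, 5.15 and 4.48.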

How the data were processed

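Colon RNA of 12 mouse samples was measured on 12 microarrays, 3 for each of 4 genotypes. The log2 values were used as the authors deposited them, made with Transcriptome Analysis Console per the submitters' processing notes. Summarisation, normalization and genome build are not given in the sources used here. Values ran from 1.72 to 19.93, and 22 probes reached the highest value on some array, where differences are compressed. Their number, 3 arrays a group, limits the precision.

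A linear model was fitted to all 12 arrays with limma 3.58.1 (R 4.3.3), leaving 8 residual degrees of freedom, with moderated variances from eBayes. Benjamini-Hochberg adjustment covered the 22206 probes, with a threshold of 0.05. Gene names came from the platform annotation. Probes without a symbol numbered 2634, and for the 55 genes on several probes the one with the highest mean was used. An array pair shared at most 1.1% of equal values, and no array repeated another. Gene lists are described by counts and medians, with no set test. Promoters came from RefSeq (GRCm38.p6). The fit was tested on simulated data, and figures were drawn with Python 3.11.15 and matplotlib 3.10.9.

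Named genes are Lao1, those past the threshold, the 15 higher and 15 lower with the smallest p, the 10 of each with the widest gap, core and the 4 smallest-p members of each list, and the 6 per array farthest from the other arrays. The members, lists and rules were chosen with earlier results of these data known. Alternatives were only the 6 compared arrays, leaving out an array, eBayes with trend and robust options, array weights, quantile normalization, median centring (medians moved by at most 0.04), a filter on dim probes, the probe with the smallest p, and the replicate number as a block.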

Additional observations from a re-analysis of the deposited data

How the results depend on the processing

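Of the 5 calls against wild type, Sh3d19 passed under every alternative tried. The count was 2 with only the 6 compared arrays, 8 without IL4i1 knockout replicate 2, 11 with trend and robust eBayes and 18 with array weights, and it ranged from 1 to 38 when a wild type or double knockout array was left out. With the replicate number as a block it was 6, and 166 against the IL4i1 knockout. Deviations of same-numbered wild type and double knockout arrays correlated at 0.01, 0.04 and 0.22, and those of differently numbered arrays at -0.17 to 0.11. Whether same-numbered arrays share more than a number was not tested. Under the block Sulf2 was not called, and Trpm6 and Sult1c2 were. Against the LAO1 knockout the count was 60 with array weights and 13 to 68 when an array was left out, and against the IL4i1 knockout 51 without its replicate 2 and 46 to 174 over arrays left out. Probes whose groups did not overlap numbered 3949 to 5844 with 2 arrays left in a group, where fewer arrays make overlap rarer. Among bright probes the list medians were 0.79 for the interferon gamma axis, 0.28 for kynurenine, -0.40 for enteroendocrine, 0.07 for antimicrobial, -0.19 for amino acid, -0.35 for oxidase, -0.04 for small intestine, -0.32 for PPAR and -0.11 for position genes. Fewer genes enter that setting. Leaving out an array gave medians of 0.19 to 0.38 (interferon gamma axis), 0.35 to 0.41 (type I interferon), 0.02 to 0.15 (kynurenine), -0.15 to 0.03 (stem cells), -0.60 to -0.20 (absorptive), -0.39 to -0.23 (enteroendocrine), 0.07 to 0.55 (antimicrobial), 0.07 to 0.46 (cytokines), -0.14 to 0.02 (amino acid), -0.53 to -0.11 (endothelial), -0.33 to -0.21 (PPAR) and 0.07 to 0.28 (position). No called value changed sign. The cause of these shifts was not tested. Dim probes such as Lao1, Cyp1a1 and Kynu lie near the floor, where a fall cannot be detected. Whether these probes would register a rise was not tested.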
